A study of Mus musculus with 14 samples.

Results

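Messenger RNA was profiled in hair follicle stem cells (HFSC) sorted from mouse skin as CD34-positive cells with high integrin alpha 6 (ITGA6), on day 4 after hair depilation. The comparison set 3 libraries from mice labelled GR KO against 3 from mice labelled GR WT, and these 6 libraries were taken from 14 in the series; the other 8 came from skin regulatory T (Treg) cells on day 1 after depilation. The GR KO mice carry Foxp3YFP-Cre and GRfl/fl, so that Cre made in Foxp3-expressing cells removes the floxed glucocorticoid receptor gene Nr3c1 from Treg cells wherever they reside, and the stem cells measured here are not the cells targeted for deletion. The controls are named WT, with no statement of whether they carry the Cre allele, and the sources used here give neither age nor sex. All animals of both groups were depilated. Of 24537 genes listed, the 10316 with a mean of at least 5 TPM (a measure of transcript abundance scaled for transcript length and library depth) over the 6 libraries were compared. Just outside that limit stood Ftx with a mean of 4.9997 TPM and the small RNA Mir6958 with 4.9988, and just inside stood Kazn with 5.001 and Zfp141 with 5.0013. Of the genes compared, 141 had a WT mean under 5 TPM and passed through the KO group, and 192 passed through the WT group.

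HFSC reside in the bulge, the lowest permanent part of the follicle, and stay quiescent for most of the hair cycle. Plucking the hair shafts starts a new cycle, in which cells of the hair germ and then of the bulge divide and found the growing follicle. Glucocorticoid hormones bind the receptor encoded by Nr3c1, which enters the nucleus and switches on genes such as Fkbp5, Tsc22d3 and Klf9. Treg cells are T cells that carry the factor Foxp3 and restrain immune responses, and in skin many of them lie next to the bulge. The study's title places glucocorticoid signalling in Treg cells upstream of stem cell activation and hair growth, and the HFSC libraries read what the stem cells themselves expressed.

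The sorted cells carried the RNA of follicle stem cells in both genotypes. Values are given in the order of replicates 1, 2 and 3. Krt15, a bulge keratin, stood at 7252, 4984 and 4439.9 TPM in the WT libraries and 3867, 4649 and 3562 TPM in the KO libraries. Cd34, a surface glycoprotein used for the sort, stood at 109, 149 and 119 TPM in the WT libraries and 152, 225 and 130.2 TPM in the KO libraries. Itga6, the other sort marker, stood at 82.7, 118 and 115 TPM in the WT libraries and 109, 104 and 115 TPM in the KO libraries. Lgr5, a receptor of Wnt-amplifying R-spondins found in bulge and germ, stood at 61.2, 80.9 and 94.4 TPM in the WT libraries and 102, 88.7 and 62.7 TPM in the KO libraries. The groups overlapped for Cd34, Itga6 and Lgr5, and for Krt15 KO replicate 2 lay above WT replicate 3. None of the 4 passed the test, with log2 differences (KO minus WT) from -0.44 (Krt15) to 0.40 (Cd34). Single libraries moved these values: Krt15 was at -0.23, Itga6 at -0.09 and Lgr5 at -0.08 without WT replicate 1, Lgr5 at -0.06 without KO replicate 1, and Cd34 at 0.17 without KO replicate 2.

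Marker RNA of other cell types was summed in each library. The summed level of 9 T cell markers ran from 1.56 to 4.45 TPM in WT and from 1.35 to 3.09 TPM in KO, and Foxp3 did not exceed 0.357 TPM in any library. Endothelial markers summed to at most 1.6 TPM and those of fibroblasts and dermal papilla to at most 16.9 TPM. Macrophage and monocyte markers reached 20.2 TPM and neutrophil markers 14.7 TPM, both in WT replicate 1. Erythroid markers were at 0, 48.4 and 29.6 TPM in the WT libraries and 40.3, 18.4 and 53.3 TPM in the KO libraries. Merkel cell markers summed to at most 0.424 TPM and hair shaft and matrix markers to at most 34.5 TPM. The list for Langerhans cells and MHC class II, at 125 to 184 TPM, was mostly Epcam, with Cd207 at 0. Suprabasal keratinocyte markers ran from 88.6 to 242 TPM in WT and from 98.6 to 221 TPM in KO. Markers of the isthmus and infundibulum, the follicle above the bulge, summed to between 1248 and 1447 TPM in WT and between 1556 and 1808 TPM in KO. That sum was mostly Krt79. Of the 7 markers in it that reached 5 TPM, 2 lay higher and 1 lower in every KO library (all genes: 11.8% and 13.9%). Their median log2 difference was -0.24. The sums of markers shared by sebocytes and adipocytes did not overlap either, at 1111 to 1593 TPM in WT and 2249 to 3319 TPM in KO. Smooth muscle and pericyte markers lay the other way at low level, 8 to 10.4 TPM in WT and 2.24 to 5.52 TPM in KO, as did those of melanocytes and Schwann cells, 9.03 to 18.3 and 5.56 to 5.96 TPM. In such bulk libraries a change in the share of a cell type and a change in RNA per cell cannot be told apart.

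Nr3c1 itself was expressed in the stem cells of both genotypes, at 41.1, 48.9 and 34.8 TPM in the WT libraries and 48.5, 35.7 and 46.7 TPM in the KO libraries. The means were 41.6 ± 7.07 and 43.6 ± 6.89 TPM (SD, n = 3 each), the groups overlapped, and an exact two-sided permutation test over 20 assignments gave p = 0.8, where the smallest value it can give is 0.1. The log2 difference of 0.07 turned to -0.05 without WT replicate 3 and to -0.01 without KO replicate 1.

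The WT group held 1 library that stood apart. WT replicate 1 was the shallowest, with 4.5 M recovered tags against 6.28 to 7.99 M in the other 5, and lay at -50.9 on the first principal component (43.1% of variance) where the others lay between 2.2 and 16.3. Its values were lower for long transcripts: against the other WT libraries its median log2 difference was -0.01 for transcripts of up to 1646 bases and -0.28 for those of 4117 bases or more. Without it the 48 genes that passed the test over all 6 libraries kept their direction, with differences 0.84 to 1.1 times as large and limma adjusted p values of 0.0253 to 0.0679. Because the 48 were chosen on these same 6 libraries, their kept direction is no separate support. Medians of gene lists without it are given for most lists. A transcript of 2000 bases needs 0.308 to 0.515 TPM, depending on the library, to reach 3 tags. Replicates were separate samples, but the labels do not say that each came from its own mouse, and a p-value here speaks to the scatter of the samples alone, some of which may be technical.

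On this comparison 38 genes rose in KO-derived stem cells and 10 fell (limma on log2(TPM + 1), Benjamini-Hochberg adjusted p under 0.05 over all 10316 genes), which is 0.465% of the genes tested, 0.368% higher and 0.0969% lower. The median difference over all genes was -0.02. Among the 38 were genes of cholesterol synthesis, fatty acid elongation and activation, lipid droplets and ceramide handling, and several genes known as glucocorticoid targets. The 10 lower genes held 2 members of the list of DNA replication and S phase, Ung and Gins2, and the bulge factor Tbx1. Without any test, the lowest KO value exceeded the highest WT value for 1220 genes (11.8%), and the highest KO value was under the lowest WT value for 1433 (13.9%). The counts of each list below are to be read against these shares. At an adjusted p under 0.1 the count was 387.

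The number of genes past the threshold rested on every library. It was 2 without WT replicate 1, 6 without WT replicate 2, 6 without WT replicate 3, 2 without KO replicate 1, 0 without KO replicate 2 and 0 without KO replicate 3, where 1280 and 1247 genes still had an unadjusted p under 0.05 in limma. That unadjusted count was 1923 over all 6 libraries. It was 2151, 1785 and 1827 without WT replicates 1, 2 and 3, and 1717 without KO replicate 1. No called gene changed direction under any setting in which it was tested. The calls were chosen on these same libraries, so this is no separate support for them. Of the calls, 79.2% were higher in KO, whereas with limma's voom on recovered tags (583 calls, 43 of the 48 among them) the share was 46% and with sample weights (864 calls, 48 of 48) 48.4%.

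**Figure D1:**
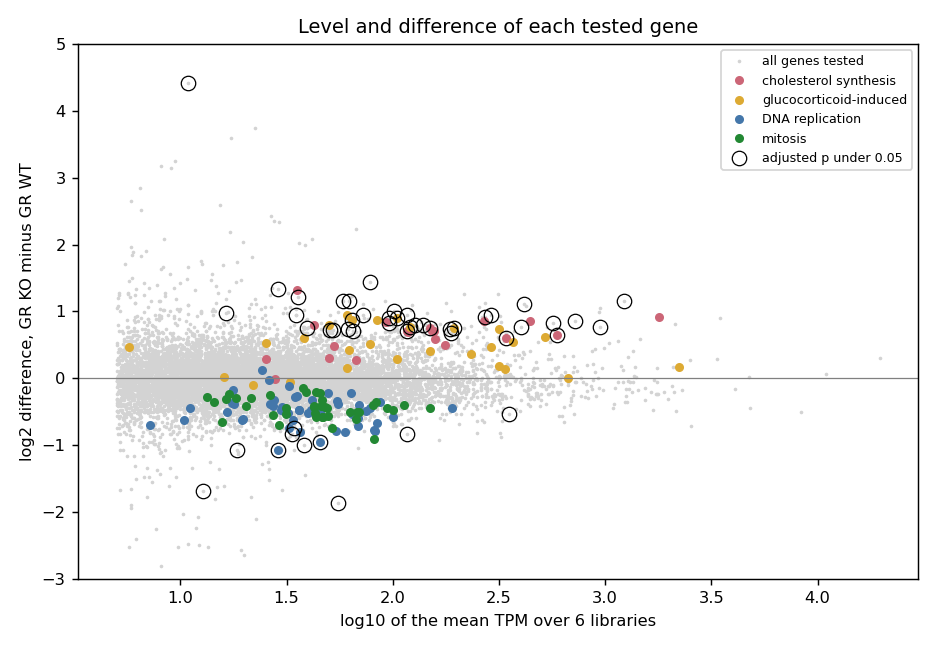
Each point is 1 of the tested genes: the horizontal axis gives the log10 of the mean TPM over the 6 HFSC libraries and the vertical axis the log2 difference of KO minus WT, with coloured points for the lists in the legend. Black rings mark the 48 genes past the limma threshold, 38 above and 10 below the zero line, and 1 gene falls outside the plotted range.

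The genes with the largest rise were led by handlers of lipid. Mfsd2a, a transporter of lysophospholipids, stood at 32.5, 44.1 and 49.1 TPM in the WT libraries and 105, 120.2 and 117 TPM in the KO libraries (log2 difference 1.44, SE 0.16, limma adjusted p = 0.0349), a 2.72-fold higher mean. Mfsd2a and the small RNA Snord98 were the 2 genes that kept their call without WT replicate 1, Mfsd2a with a log2 difference of 1.27 and adjusted p = 0.0253. Adig, a small membrane protein of fat cells, stood at 18.1, 13.4 and 16.3 TPM in the WT libraries and 34.3, 42.9 and 48 TPM in the KO libraries (log2 difference 1.33, limma adjusted p = 0.0349). Elovl6, the elongase that makes stearate from palmitate, was the most abundant of the 12 leading genes, at 631, 803 and 833 TPM in the WT libraries and 1433, 1815 and 1823 TPM in the KO libraries (log2 difference 1.16, SE 0.14, limma adjusted p = 0.0349). For all of these every KO library lay above every WT library.

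Other leading genes belonged to several classes. Panx3, a channel-forming pannexin, stood at 31.7, 42.2 and 40 TPM in the WT libraries and 66.9, 101 and 91.1 TPM in the KO libraries (log2 difference 1.16, limma adjusted p = 0.0478). Aldh1a7, an aldehyde dehydrogenase related to the retinoic acid-forming enzyme, stood at 37.3, 32.3 and 37.2 TPM in the WT libraries and 75.4, 69.9 and 96.8 TPM in the KO libraries (log2 difference 1.15, limma adjusted p = 0.0349). Cyp2g1, a cytochrome P450, stood at 268, 240.4 and 259 TPM in the WT libraries and 409, 596 and 701 TPM in the KO libraries (log2 difference 1.11, limma adjusted p = 0.0487), with KO replicate 1 the lowest of its group. Thrb encodes a thyroid hormone receptor and had tight groups, 10.2, 10.6 and 11.1 TPM in the WT libraries and 24.4, 20.9 and 20.8 TPM in the KO libraries (log2 difference 0.98, limma adjusted p = 0.0435). Plk3, a stress-responsive kinase, stood at 21.1, 25.2 and 24.8 TPM in the WT libraries and 47.9, 46.3 and 45.2 TPM in the KO libraries (log2 difference 0.95, limma adjusted p = 0.0349). Aadacl3, a putative lipid esterase, had a log2 difference of 1.21, and Secisbp2l, a paralogue of the factor that allows selenocysteine to be inserted into proteins, one of 0.91 (limma adjusted p = 0.0478 and 0.0483). The groups did not overlap for any of these genes.

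The remaining called genes that stand in no list and outside the leading 12 were Cdr2 (0.90), Hsd17b12 (0.83), Nudt17 (0.83), Echdc1 (0.80), Tmem159 (0.79), C2cd2 (0.75), Sdr16c5 (0.74), Apmap (0.73), Vmp1 (0.72), Tmem135 (0.70) and Rhob (0.67), with the log2 difference in brackets. They include Hsd17b12, a ketoacyl reductase of fatty acid elongation, Sdr16c5, an epidermal retinol dehydrogenase, and Rhob, a small GTPase. A further 5 of the 48 were rows of small RNAs, whose short length makes TPM coarse: Snord98 was at 0 in all 3 WT libraries and at 16.8, 15.2 and 33 TPM in KO and passed the limit of 5 TPM through the KO group alone. Its call therefore carries no weight. Mir22 and Mir1892 had log2 differences of 0.94 and 0.94, and Mir5046 and Snora52 of -1.86 and -1.68.

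The lower genes were fewer. Ung, which removes uracil from DNA, stood at 37.8, 36.4 and 43.2 TPM in the WT libraries and 18.1, 20.1 and 16.2 TPM in the KO libraries (log2 difference -1.07, SE 0.13, limma adjusted p = 0.0349). B9d1, a protein of the ciliary transition zone, stood at 25.6, 23.3 and 27 TPM in the WT libraries and 10.4, 14.1 and 10.2 TPM in the KO libraries (log2 difference -1.07, SE 0.16, limma adjusted p = 0.0478). Selenom, a selenoprotein of the endoplasmic reticulum, stood at 54.1, 47.8 and 52.1 TPM in the WT libraries and 26.9, 25.8 and 22.7 TPM in the KO libraries (log2 difference -1.0, SE 0.12, limma adjusted p = 0.0349). The KO mean was 0.464 of the WT mean for Ung, 0.458 for B9d1 and 0.49 for Selenom. Lgals1, the glycan-binding galectin-1, stood at 158, 146 and 144 TPM in the WT libraries and 94.6, 69.8 and 86.5 TPM in the KO libraries (log2 difference -0.84, limma adjusted p = 0.0478). Polr2h, a subunit shared by the nuclear RNA polymerases, and Dxo, an RNA-decapping enzyme, fell by 0.84 and 0.74 on the log2 scale (limma adjusted p = 0.0478 for both). The next lower genes in rank did not pass the threshold: Krt17, a keratin of follicle and germ, stood at 3257, 3042 and 3167 TPM in the WT libraries and 2277, 1699 and 1810.1 TPM in the KO libraries (log2 difference -0.72, limma adjusted p = 0.0523), and Sorbs3, Polr2f and Cenpm had adjusted p values of 0.0553, 0.0553 and 0.0553.

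**Figure D2:**
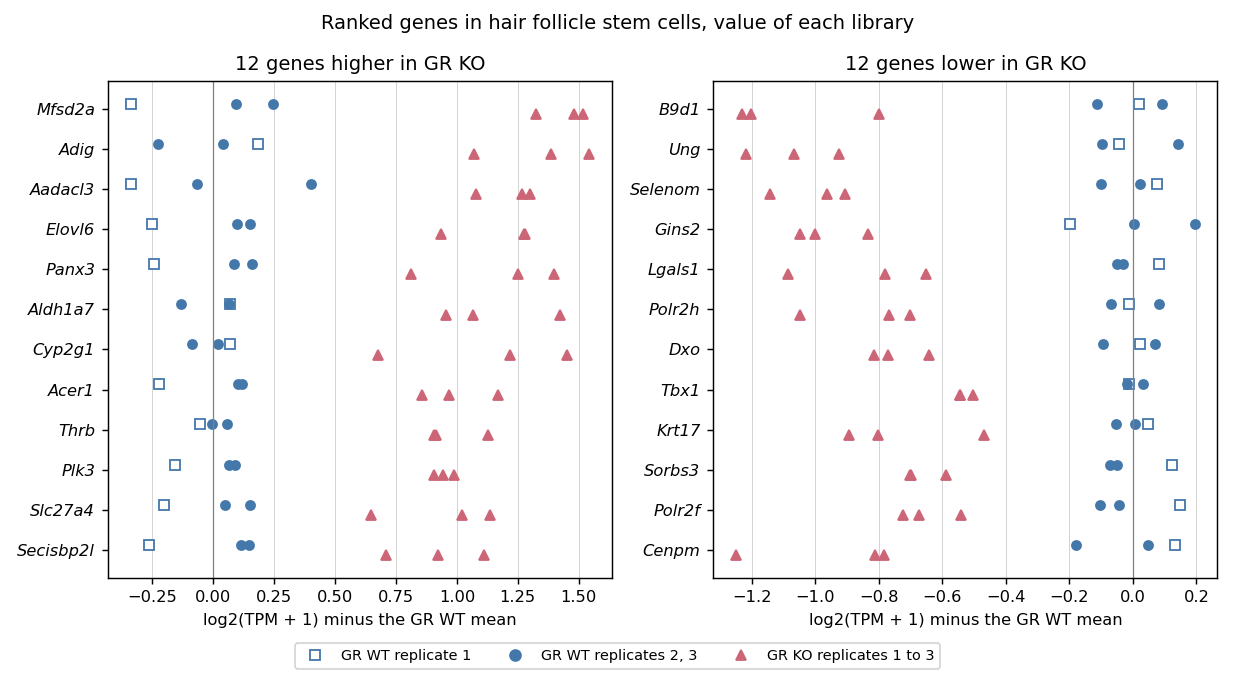
Value of each HFSC library for the 12 leading higher (left) and 12 leading lower genes (right), as log2(TPM + 1) minus the WT mean on the horizontal axis. Triangles are the 3 KO libraries, circles WT replicates 2 and 3 and the open square WT replicate 1. In every row the KO points lie to one side of the WT points, and Krt17, Sorbs3, Polr2f and Cenpm did not pass the threshold.

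Cholesterol is built from acetyl-CoA through mevalonate, squalene and lanosterol. All 20 listed enzymes of this route were expressed, and 4 rose and none fell (0.368% and 0.0969% of all genes). Of the 20, 17 were higher in every KO library than in any WT library, against 11.8% of all genes. The median log2 difference was 0.69, 0.61 without WT replicate 1, against -0.02 over all genes. At the entry, Hmgcs1, the synthase that makes HMG-CoA, stood at 460.5, 448 and 467 TPM in the WT libraries and 631, 772 and 769.9 TPM in the KO libraries (log2 difference 0.65, SE 0.11, limma adjusted p = 0.0493). Fdps, which makes farnesyl pyrophosphate, stood at 263, 258 and 295 TPM in the WT libraries and 407, 423 and 405 TPM in the KO libraries (log2 difference 0.60, SE 0.10, limma adjusted p = 0.0483). Fdft1, squalene synthase, stood at 79, 96.9 and 90.5 TPM in the WT libraries and 137, 144 and 151 TPM in the KO libraries (log2 difference 0.70, SE 0.11, limma adjusted p = 0.0483). Cyp51, which removes a methyl group from lanosterol, stood at 104, 118 and 113 TPM in the WT libraries and 181, 193 and 192 TPM in the KO libraries (log2 difference 0.75, SE 0.10, limma adjusted p = 0.0349). In these 4 genes the lowest KO value was above the highest WT value.

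Most other enzymes of the route lay in the same order without passing the test; those named here, and Srebf2, were chosen after their values were seen. Idi1, an isomerase, had the largest difference of the list, 10.2, 25.7 and 26.5 TPM in the WT libraries and 40.7, 54.1 and 54.4 TPM in the KO libraries (log2 difference 1.32, limma adjusted p = 0.0948). The exceptions were Tm7sf2, Sc5d and Dhcr7, whose groups overlapped and whose log2 differences were 0.29, -0.01 and 0.48. Of 17 genes of sterol regulation, uptake and efflux, none passed the test. In every KO library 8 lay higher and none lower, against 11.8% and 13.9% of all genes. The list median of 0.24 was 0.13 without WT replicate 1. Insig1, which holds the sterol sensor in the endoplasmic reticulum, stood at 94.9, 120.4 and 128 TPM in the WT libraries and 182, 224 and 194 TPM in the KO libraries (log2 difference 0.81, limma adjusted p = 0.0553). Srebf2, the transcription factor of the route, stood at 113, 161 and 151 TPM in the WT libraries and 164, 174 and 179.8 TPM in the KO libraries (log2 difference 0.30, limma adjusted p = 0.301).

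Promoter sequence was examined because these enzymes lay in the same order. Sterol-responsive promoters are known to combine a sterol element, bound by SREBP, with CCAAT boxes, bound by NF-Y. Shown are the 250 bases before the RefSeq start (GRCm38.p6) of Hmgcs1 (chr13:119690101-119690350, plus strand) and of Cyp51 (chr5:4104698-4104947, minus strand), which stand for an early and a late step of the route and both rose. Each is printed 5′ to 3′ along the gene's own strand, and capitals mark CCAAT on either strand (ATTGG when reversed) and, in Hmgcs1, TCACNCCAC.
Hmgcs1: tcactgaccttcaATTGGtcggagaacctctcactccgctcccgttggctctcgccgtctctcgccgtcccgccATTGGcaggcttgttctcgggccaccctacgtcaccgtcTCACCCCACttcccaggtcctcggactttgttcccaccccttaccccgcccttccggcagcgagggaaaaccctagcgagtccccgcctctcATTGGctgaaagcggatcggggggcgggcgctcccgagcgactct
Cyp51: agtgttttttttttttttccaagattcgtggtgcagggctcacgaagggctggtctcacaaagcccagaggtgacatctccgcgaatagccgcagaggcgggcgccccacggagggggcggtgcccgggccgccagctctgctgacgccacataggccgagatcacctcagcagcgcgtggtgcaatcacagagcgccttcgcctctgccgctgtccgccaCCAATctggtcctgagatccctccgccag
The Hmgcs1 window holds 1 match to the sterol element, whose first base lies 137 bases before the start, and 3 CCAAT boxes; that of Cyp51 holds 1 CCAAT box and no TCACNCCAC. Of the list, 14 of 20 genes had a promoter within 100 bases of the deposited transcript start. A CCAAT box on either strand was found in 12 of those 14 (85.7%), against 2733 of 7436 promoters of tested genes (36.8%), and TCACNCCAC in 1 of 14 (7.14%), against 74 of 7436 (0.995%). That 1 match is the Hmgcs1 promoter, shown here because it holds the match. Cyp51 was likewise picked among members that hold a CCAAT box. TCACNCCAC was in 0 of 13 promoters of the sterol regulation list and 0 of 20 of the fatty acid synthesis list. Among genes called higher it was in 1 of 27. A match describes letters in this window and is no measure of binding.

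Among fatty acid genes, of 24 genes of synthesis and elongation 3 rose and none fell (0.368% and 0.0969% of all genes). Of the 24, 16 lay higher and 1 lower in every KO library, against 11.8% and 13.9% of all genes. The list median was 0.68 (0.53 without WT replicate 1). Besides Elovl6, the 2 others that rose were acyl-CoA synthetases, which activate fatty acids. Acsl5 stood at 307, 288 and 297 TPM in the WT libraries and 467, 497 and 545 TPM in the KO libraries (log2 difference 0.76, SE 0.10, limma adjusted p = 0.0349). Acsl4, which prefers arachidonate, stood at 36.6, 38.9 and 42.9 TPM in the WT libraries and 65.4, 66.5 and 64.5 TPM in the KO libraries (log2 difference 0.72, SE 0.11, limma adjusted p = 0.0478). Scd1, Elovl4 and Fads2 were chosen after their values were seen. Scd1, the main stearoyl-CoA desaturase of skin, was more abundant than any of them but missed the threshold, at 1769, 2852 and 2731 TPM in the WT libraries and 4015, 4734 and 4758 TPM in the KO libraries (log2 difference 0.90, limma adjusted p = 0.0613). Elovl4, an elongase of very long chains, stood at 107, 142 and 123 TPM in the WT libraries and 194, 387 and 348 TPM in the KO libraries (log2 difference 1.26, limma adjusted p = 0.0607), with KO replicate 1 well below the other KO libraries. The 1 gene that lay lower in every KO library was Fads2, a desaturase of polyunsaturated chains, at 11, 8.84 and 12.6 TPM in the WT libraries and 6.06, 4.67 and 4.33 TPM in the KO libraries (log2 difference -0.97, limma adjusted p = 0.092).

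Of 26 genes of triglyceride storage and fatty acid oxidation 2 rose and none fell (0.368% and 0.0969% of all genes). Of the 26, 19 lay higher in every KO library (11.8% of all genes did), with a median of 0.61 (0.49 without WT replicate 1). The risen genes were Mfsd2a and Plin2, the coat protein of lipid droplets, at 642, 743 and 713 TPM in the WT libraries and 1124, 1153 and 1281 TPM in the KO libraries (log2 difference 0.76, SE 0.10, limma adjusted p = 0.0365). Mfsd2a is a transporter of lysophospholipids, and the members of the list were chosen with earlier results of these data known. The count of 2 is therefore no separate support. Fabp5, the epidermal fatty acid-binding protein, stood at 1393, 1648 and 1550 TPM in the WT libraries and 2139, 2791 and 3212 TPM in the KO libraries (log2 difference 0.81, limma adjusted p = 0.057). Dgat1, which closes triglyceride synthesis, stood at 36.2, 50.8 and 51.4 TPM in the WT libraries and 63.2, 83.6 and 84.7 TPM in the KO libraries (log2 difference 0.73, limma adjusted p = 0.093), and Pnpla2, which opens its breakdown, at 28, 27.5 and 28.5 TPM in the WT libraries and 38.3, 42.9 and 45.5 TPM in the KO libraries (log2 difference 0.57, limma adjusted p = 0.0637). Genes of storage and of breakdown thus lay higher in the same libraries. Cd36 and Pparg were chosen after their values were seen. Cd36, a fatty acid importer, stood at 8.71, 18.6 and 18 TPM in the WT libraries and 31.2, 35.4 and 49.4 TPM in the KO libraries (log2 difference 1.35, limma adjusted p = 0.0701), and Pparg, a lipid-sensing nuclear receptor of sebocytes and adipocytes, at 61.4, 74.1 and 72.2 TPM in the WT libraries and 99.5, 90.8 and 134 TPM in the KO libraries (log2 difference 0.62, limma adjusted p = 0.101). Slc27a4, a fatty acid transport protein with a role in the skin barrier and a member of no list, rose from 198 ± 24.7 to 382 ± 64.7 TPM (SD, n = 3 each; log2 difference 0.94, limma adjusted p = 0.0483).

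Ceramides, the sphingolipids of the skin barrier, are made from serine and fatty acyl-CoA. Of 23 genes 2 rose, none fell and 8 lay higher in every KO library, where 0.368%, 0.0969% and 11.8% of all genes did. The median of 0.16 ranged from 0.09 (WT replicate 1 left out) to 0.29 (WT replicate 3 left out). Cers4, a ceramide synthase, stood at 486, 536 and 517 TPM in the WT libraries and 828, 912 and 1045 TPM in the KO libraries (log2 difference 0.85, SE 0.11, limma adjusted p = 0.0349). Acer1, the ceramidase that breaks ceramide down in epidermis, stood at 57.3, 72 and 72.8 TPM in the WT libraries and 122, 132 and 152 TPM in the KO libraries (log2 difference 1.0, SE 0.14, limma adjusted p = 0.039). A synthetic and a degrading enzyme thus rose together. Sptlc3, a subunit of the first enzyme, stood at 7.26, 8.52 and 8.17 TPM in the WT libraries and 13.9, 19.4 and 18 TPM in the KO libraries (log2 difference 1.0, limma adjusted p = 0.0553).

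Sebocyte and adipocyte markers also lay higher. They are not independent of the lipid lists: Soat1, for example, is also in the list of sterol regulation, uptake and efflux. Of 14 such markers 7 reached 5 TPM and none of them was called. Of the 7, 6 lay higher in every KO library (11.8% of all genes did), with a median log2 difference of 0.77. Mgst1, a membrane glutathione transferase, stood at 419, 749 and 709.5 TPM in the WT libraries and 1059.9, 1216 and 1533 TPM in the KO libraries. Far2, which makes fatty alcohols for wax, stood at 212, 318 and 286 TPM in the WT libraries and 431, 599.9 and 707 TPM in the KO libraries. Soat1, which esterifies cholesterol, stood at 113, 198 and 206 TPM in the WT libraries and 297, 376 and 434 TPM in the KO libraries. Awat2, a wax synthase, stood at 26, 38.8 and 25.5 TPM in the WT libraries and 42, 41.2 and 62.9 TPM in the KO libraries, again without overlap. Mc5r, a melanocortin receptor of sebocytes, overlapped, at 13.9, 23.3 and 30.7 TPM in the WT libraries and 28.3, 38.7 and 33.7 TPM in the KO libraries. The adipocyte genes Plin1 and Lep were at 0 in all 6 libraries and Adipoq did not exceed 1.68 TPM. Krt79, a keratin of the infundibulum and the sebaceous duct, stood at 919.9, 986 and 864 TPM in the WT libraries and 1198, 1428 and 1459 TPM in the KO libraries (log2 difference 0.56, limma adjusted p = 0.0607). What part these markers' cells have in the lipid result was not tested.

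**Figure D3:**
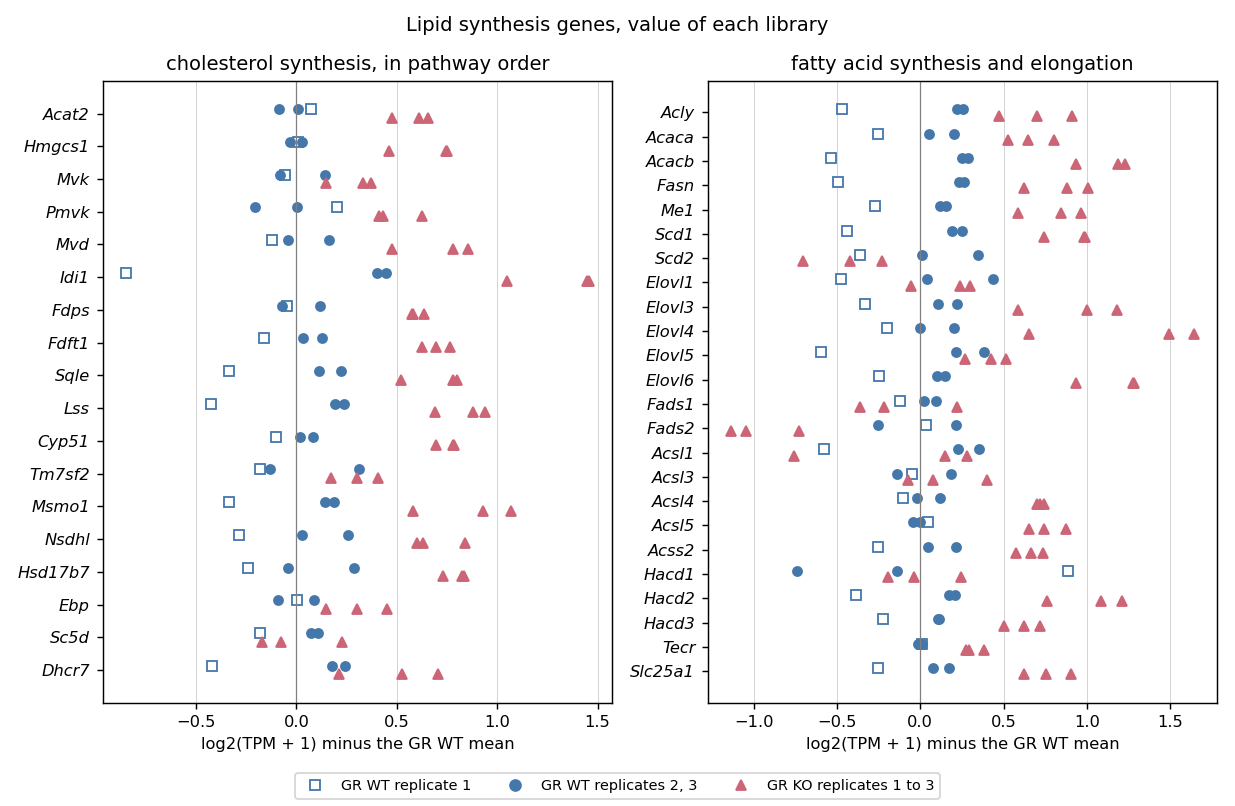
Value of each HFSC library for 18 of the 20 cholesterol synthesis genes in pathway order (left) and the 24 genes of fatty acid synthesis and elongation (right), as log2(TPM + 1) minus the WT mean. Triangles are KO libraries, circles WT replicates 2 and 3 and the open square WT replicate 1. KO points lie to the right of all WT points in 15 and 16 rows, and to the left in 1, Fads2.

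Genes of the cell division cycle lay lower in KO-derived stem cells, over many members by small amounts. Of 50 expressed genes of DNA replication and S phase, 2 fell and none rose (0.0969% and 0.368% of all genes). Of the 50, 27 lay lower in every KO library (13.9% of all genes did), and the median log2 difference was -0.48, -0.54 without WT replicate 1. In the list 49 of 50 differences were negative. Members of a list were read in the same 6 libraries, so such counts are not counts of independent observations, here or in other lists. The genes that fell were Ung and Gins2, a subunit of the complex that activates the replicative helicase, at 52.3, 60.4 and 69 TPM in the WT libraries and 29.6, 33.3 and 28.6 TPM in the KO libraries (log2 difference -0.96, SE 0.14, limma adjusted p = 0.0435). Mcm7, a subunit of the helicase itself, stood at 105, 98.3 and 108 TPM in the WT libraries and 74.5, 60.3 and 60.1 TPM in the KO libraries (log2 difference -0.67, SE 0.12, limma adjusted p = 0.0554). Pcna, the clamp that holds the polymerase on DNA, stood at 194, 222 and 245 TPM in the WT libraries and 178, 157 and 147 TPM in the KO libraries (log2 difference -0.45, limma adjusted p = 0.115). Uhrf1, which carries DNA methylation through replication, stood at 93.6, 95.5 and 125 TPM in the WT libraries and 67.6, 57.8 and 54.4 TPM in the KO libraries (log2 difference -0.79, limma adjusted p = 0.0569), and Chaf1a, which loads histones on new DNA, at 47.4, 42.5 and 50.2 TPM in the WT libraries and 31.5, 26.6 and 21.2 TPM in the KO libraries (log2 difference -0.81, limma adjusted p = 0.0607). Pcna was chosen after its values were seen. Mcm7, Pcna, Uhrf1 and Chaf1a missed the threshold although their groups did not overlap.

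Mitotic genes followed. All 40 differences were negative and none passed the test. The list mean of log2(TPM + 1) was 5.53, 5.45 and 5.85 in the WT libraries and 5.4, 5.0 and 5.1 in the KO libraries. KO replicate 1 thus lay just under WT replicate 2. Of the 40, 15 lay lower in every KO library (13.9% of all genes did), and the median was -0.43 (-0.46 without WT replicate 1). Plk1, a kinase that drives entry into and passage through mitosis, stood at 67.7, 56.2 and 71.2 TPM in the WT libraries and 43.9, 31 and 40.8 TPM in the KO libraries (log2 difference -0.75, limma adjusted p = 0.0705). Cdk1, the mitotic kinase, chosen after its values were seen, stood at 50.4, 55.5 and 72.9 TPM in the WT libraries and 43.1, 34.1 and 42.3 TPM in the KO libraries (log2 difference -0.56, limma adjusted p = 0.131). Mki67, the proliferation marker Ki-67, stood at 117, 114 and 152 TPM in the WT libraries and 119, 82.6 and 89.8 TPM in the KO libraries (log2 difference -0.40, limma adjusted p = 0.261), and KO replicate 1 lay above both WT replicates 1 and 2. Birc5, survivin, stood at 133, 81 and 105 TPM in the WT libraries and 70.5, 41.9 and 55.6 TPM in the KO libraries (log2 difference -0.91, limma adjusted p = 0.0948). The mitotic transcripts were thus present in all 6 libraries, and KO replicate 2 was the lowest library for these 4 genes.

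**Figure D4:**
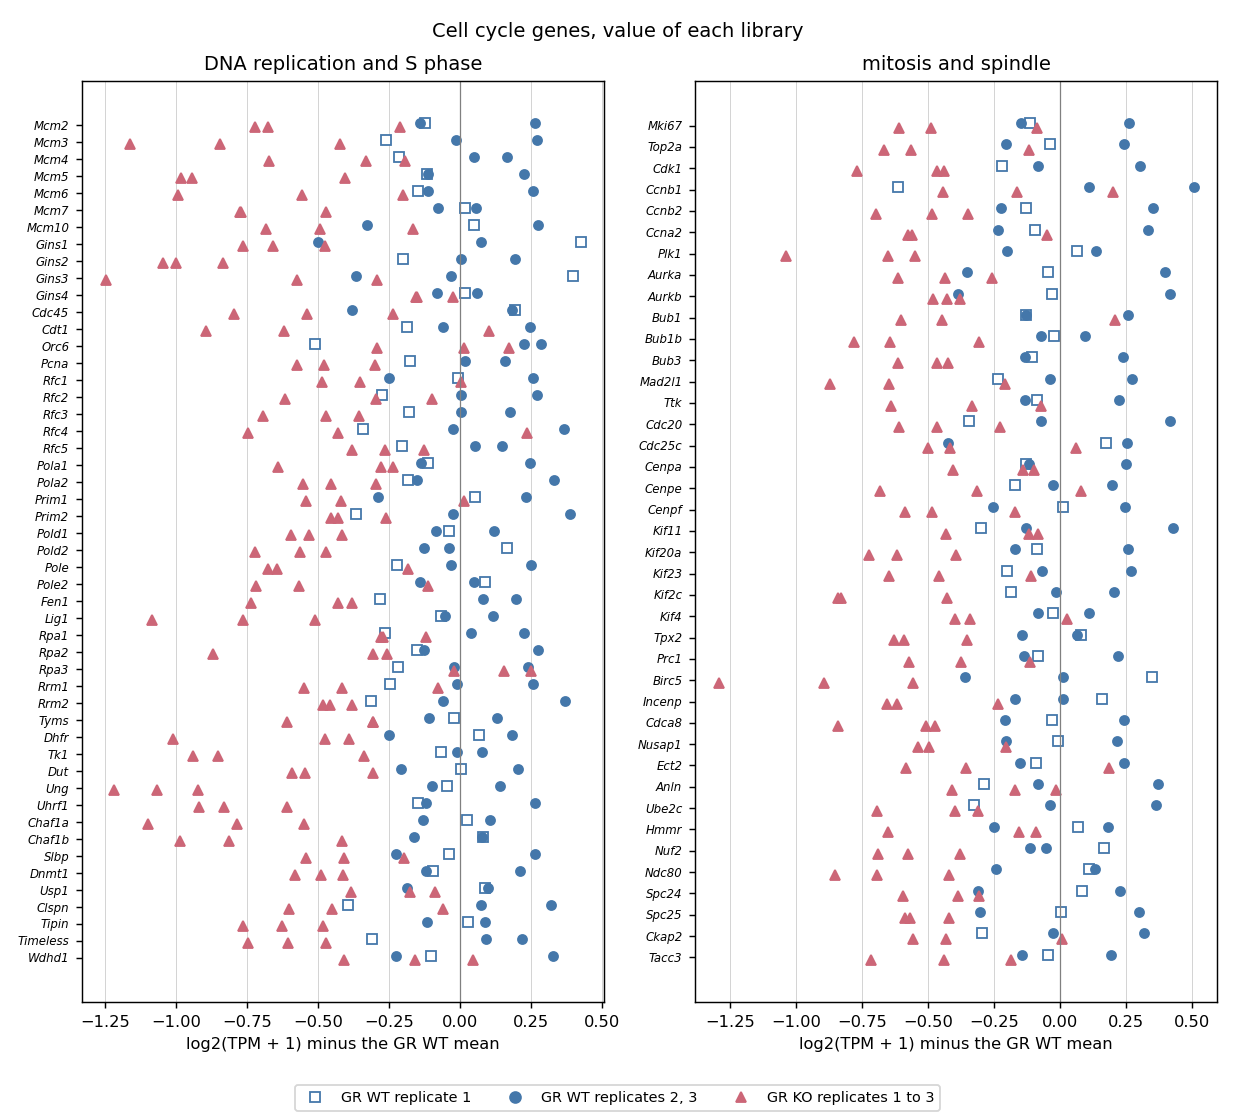
Value of each HFSC library for the 50 genes of DNA replication and S phase (left) and the 40 mitotic genes (right), as log2(TPM + 1) minus the WT mean. Triangles are KO libraries, circles WT replicates 2 and 3 and the open square WT replicate 1. KO points lie to the left of all WT points in 27 and 15 rows, and overlap for Mki67.

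Promoters of these genes are known for other elements: sites of the E2F factors in S phase genes, and CHR elements beside CCAAT boxes in mitotic genes. Shown are the 250 bases before the start, in the same build and orientation as above, of Mcm7 (chr5:138171884-138172133, minus strand) and of Cdk1 (chr10:69352913-69353162, minus strand), one from each list. Both were picked among the members that hold the E2F or CHR match, so they do not stand for their lists. Capitals mark CCAAT on either strand and, in Mcm7, the E2F site TTTCCCGC in its reverse form GCGGGAAA, and in Cdk1 the CHR element TTTGAA.
Mcm7: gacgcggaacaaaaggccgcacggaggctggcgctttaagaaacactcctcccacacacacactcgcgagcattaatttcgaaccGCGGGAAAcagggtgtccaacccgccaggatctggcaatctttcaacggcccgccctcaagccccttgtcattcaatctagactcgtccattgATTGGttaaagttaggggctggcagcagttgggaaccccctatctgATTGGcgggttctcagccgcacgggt
Cdk1: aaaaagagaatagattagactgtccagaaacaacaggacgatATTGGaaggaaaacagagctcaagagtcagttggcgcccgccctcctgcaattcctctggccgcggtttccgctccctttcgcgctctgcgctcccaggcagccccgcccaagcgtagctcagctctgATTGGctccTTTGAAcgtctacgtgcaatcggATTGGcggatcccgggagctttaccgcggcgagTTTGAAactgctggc
The Mcm7 window holds 1 E2F site and 2 CCAAT boxes, and that of Cdk1 holds 2 TTTGAA matches and 3 CCAAT boxes. On either strand, TTTCCCGC or TTTGGCGC was found in 5 of 37 S phase promoters (13.5%) and in 209 of 7436 promoters of tested genes (2.81%). TTTGAA was found in 10 of 31 mitotic promoters (32.3%) and in 747 of 7436 (10%). CCAAT boxes were found in 25 of 31 mitotic (80.6%) and 23 of 37 S phase promoters (62.2%). The CCAAT box was frequent in the cholesterol list, whose genes lay higher, and in the mitotic list, whose genes lay lower.

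Regulators of the cycle were divided. Among 24 G1 cyclins, E2F factors and their partners none passed the test. Of the 24, 2 lay higher and 7 lower in every KO library (all genes: 11.8% and 13.9%). The median of -0.23 ranged from -0.32 (WT replicate 1 left out) to -0.10 (WT replicate 3 left out). The MYC family split: Myc stood at 83.4, 82.7 and 75.7 TPM in the WT libraries and 121, 136 and 107 TPM in the KO libraries (log2 difference 0.58, limma adjusted p = 0.0656), Mycn at 11.7, 13.1 and 20.8 TPM in the WT libraries and 8.73, 6.97 and 4.22 TPM in the KO libraries (log2 difference -1.09, limma adjusted p = 0.112). Ccnd1, cyclin D1, stood at 80.2, 84.5 and 120.2 TPM in the WT libraries and 79.4, 60.9 and 55.4 TPM in the KO libraries (log2 difference -0.53, limma adjusted p = 0.19), and Cdk4, its kinase, at 303, 318 and 374 TPM in the WT libraries and 274, 241 and 237 TPM in the KO libraries (log2 difference -0.40, limma adjusted p = 0.128). The list of CDK inhibitors and p53 targets (24 genes) had 2 members that rose and none that fell (0.368% and 0.0969% of all genes). In every KO library 6 lay higher and 5 lower, and 12 differences were positive and 12 negative. Cdkn1a, the inhibitor p21, stood at 82.3, 90.8 and 93.9 TPM in the WT libraries and 142, 163 and 153 TPM in the KO libraries (log2 difference 0.77, SE 0.11, limma adjusted p = 0.0391), and Plk3 was the other. Trp53, the p53 gene itself, stood at 118, 149 and 159.9 TPM in the WT libraries and 96.3, 98.2 and 105 TPM in the KO libraries (log2 difference -0.49, limma adjusted p = 0.111).

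Chromatin and ribosome genes lay slightly lower. None of 28 histone variant and chromatin assembly genes passed the test, with a median of -0.25 (-0.30 without WT replicate 1). Of the 28, 10 lay lower and none higher in every KO library (all genes: 13.9% and 11.8%). H2afx, the histone variant marked at DNA breaks, stood at 144, 129.9 and 136 TPM in the WT libraries and 71.6, 78.6 and 106 TPM in the KO libraries (log2 difference -0.69, limma adjusted p = 0.0784). None of 47 cytosolic ribosomal protein genes passed, 22 lay lower in every KO library and the median was -0.19. None of 28 ribosome biogenesis genes passed, 11 lay lower in every KO library, all 28 differences were negative, and the median was -0.18. Rows of ribosomal proteins can share reads with their pseudogenes, so single members are uncertain.

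Genes that glucocorticoids are known to induce were read in stem cells that carry the receptor gene in both genotypes. Of 27 such genes 4 rose and none fell (0.368% and 0.0969% of all genes). Without overlap, 14 lay higher and none lower in every KO library, against 11.8% and 13.9% of all genes. The groups of the other 13 overlapped, and 2 differences were negative. The median was 0.47 (0.45 without WT replicate 1). Klf9, a Krüppel-like factor, stood at 41.8, 48.7 and 44.8 TPM in the WT libraries and 84.8, 87.1 and 77.3 TPM in the KO libraries (log2 difference 0.87, SE 0.11, limma adjusted p = 0.0349). Errfi1, an inhibitor of the EGF receptor, stood at 72.9, 74.7 and 69.4 TPM in the WT libraries and 164, 131 and 117 TPM in the KO libraries (log2 difference 0.90, SE 0.14, limma adjusted p = 0.0478). Bcl6, a transcriptional repressor, stood at 142, 159 and 133 TPM in the WT libraries and 273, 223 and 236 TPM in the KO libraries (log2 difference 0.75, SE 0.12, limma adjusted p = 0.0478), and the remaining one was Cdkn1a. Many of these genes also respond to other signals. Fkbp5, a chaperone that lowers the receptor's hormone affinity, stood at 56.3, 54.3 and 65.2 TPM in the WT libraries and 129, 85.9 and 112 TPM in the KO libraries (log2 difference 0.87, limma adjusted p = 0.0569). Tsc22d3, which encodes GILZ, stood at 31.6, 45.7 and 32.3 TPM in the WT libraries and 76.2, 66.6 and 49.1 TPM in the KO libraries (log2 difference 0.79, limma adjusted p = 0.0996); it lies outside the rule for named genes and was chosen after its values were seen. Pdk4, a brake on pyruvate oxidation, stood at 46.9, 29.2 and 49.7 TPM in the WT libraries and 74.4, 75.6 and 91 TPM in the KO libraries (log2 difference 0.95, limma adjusted p = 0.0701).

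In Treg cells, the cells targeted for deletion, Klf9, Fkbp5 and Tsc22d3 lay lower in KO. As lowest, median and highest value (3 WT and 5 KO libraries), Klf9 stood at 27.3, 27.6 and 43.2 TPM in WT Treg cells and 12.6, 16 and 25.7 TPM in KO Treg cells. Fkbp5 stood at 34.3, 42.4 and 51.3 TPM in WT Treg cells and 20.1, 27.4 and 29.4 TPM in KO Treg cells, and Tsc22d3 at 399.9, 415 and 478 TPM in WT Treg cells and 193, 239 and 243 TPM in KO Treg cells. Treg groups did not overlap for these 3 genes. The Treg groups overlapped for the other called genes of the list. Bcl6 stood at 35.8, 52.8 and 54.5 TPM in WT Treg cells and 28.5, 37.2 and 43.3 TPM in KO Treg cells. Cdkn1a stood at 116, 131 and 146 TPM in WT Treg cells and 101, 104 and 121 TPM in KO Treg cells. Errfi1 stood at 47.2, 59.4 and 109 TPM in WT Treg cells and 35.1, 57.1 and 123 TPM in KO Treg cells. RNA of stem cell sort markers in the Treg libraries also differed. Krt15 was at 122, 126 and 243 TPM in WT Treg cells and 1.38, 3.77 and 20.2 TPM in KO Treg cells. Cd34 was at 11.1, 12.6 and 16 TPM in WT Treg cells and 0.214, 3.17 and 4.95 TPM in KO Treg cells. The part of this RNA in the Treg values was not tested. The tables of both cell types were normalised separately and taken on different days after depilation, so the difference between the cell types was not tested.

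The receptor's own machinery held no called gene: none of 14 genes of receptor function and steroid handling passed, and the median was 0.06. Of the 14, 2 lay higher and 1 lower in every KO library (all genes: 11.8% and 13.9%). The lower gene was Hsd11b2, the enzyme that inactivates corticosterone, at 25.5, 26.3 and 24 TPM in the WT libraries and 19.3, 7.58 and 9.32 TPM in the KO libraries (log2 difference -1.11, limma adjusted p = 0.103). Among 16 circadian clock genes none passed, 2 lay higher and none lower in every KO library, and the median of 0.38 was 0.23 without WT replicate 1. The sources used here do not give the time of day of sampling.

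Immediate early genes, which answer growth factors and stress, included Fos, Jun, Egr and Atf3. None of 29 passed the test, and the median was 0.29 (0.33 without WT replicate 1). Of the 29, 14 lay higher and none lower in every KO library (all genes: 11.8% and 13.9%). Egr3 stood at 238, 284 and 289.5 TPM in the WT libraries and 385, 408 and 399 TPM in the KO libraries (log2 difference 0.56, limma adjusted p = 0.0588). Atf3, a stress-induced repressor, stood at 1147, 1140.4 and 1186 TPM in the WT libraries and 1898, 1892 and 1471 TPM in the KO libraries (log2 difference 0.59, limma adjusted p = 0.0613). Atf3 was thus an abundant transcript in the sorted cells of either genotype. Of 22 genes of the FGF and EGF receptor system 1 rose (Errfi1) and none fell (0.368% and 0.0969% of all genes). Of the 22, 7 lay higher and 1 lower in every KO library. The median of this list, 0.21, was 0.00 without WT replicate 1. Spry4, a feedback inhibitor of receptor tyrosine kinases, stood at 2.25, 3.82 and 3.16 TPM in the WT libraries and 5.48, 6.54 and 9.92 TPM in the KO libraries (log2 difference 1.01, limma adjusted p = 0.158), and Fgfbp1, which releases FGF from matrix, at 452, 474 and 419 TPM in the WT libraries and 625, 643 and 690 TPM in the KO libraries (log2 difference 0.54, limma adjusted p = 0.0553). With a WT mean of 3.08 TPM, Spry4 passed the limit of 5 TPM through the KO group, so its difference carries no weight.

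Of 27 bulge stem cell factors 1 fell and none rose (0.0969% and 0.368% of all genes), and the median was -0.17 (-0.16 without WT replicate 1). Of the 27, 2 lay higher and 10 lower in every KO library (all genes: 11.8% and 13.9%). Tbx1, a T-box factor tied to stem cell self-renewal, fell with tight groups, 415, 413 and 428 TPM in the WT libraries and 287, 295 and 287 TPM in the KO libraries (log2 difference -0.53, SE 0.09, limma adjusted p = 0.0483). Barx2, a homeobox factor of the follicle, stood at 435, 392 and 365 TPM in the WT libraries and 275, 216 and 277 TPM in the KO libraries (log2 difference -0.64, limma adjusted p = 0.0607). Nfatc1, which holds bulge cells quiescent, stood at 93.8, 96.1 and 81.8 TPM in the WT libraries and 71, 69.1 and 65.3 TPM in the KO libraries (log2 difference -0.40, limma adjusted p = 0.118). Of the genes that lay higher, Fst, the activin and BMP antagonist follistatin, stood at 66.3, 77.3 and 69.4 TPM in the WT libraries and 124, 146 and 85.3 TPM in the KO libraries (log2 difference 0.70, limma adjusted p = 0.112), and Id2, a BMP target, at 94.9, 124 and 113 TPM in the WT libraries and 149, 165 and 167 TPM in the KO libraries (log2 difference 0.54, limma adjusted p = 0.0894). Sox9, the factor that maintains bulge identity, overlapped, at 212, 206 and 206 TPM in the WT libraries and 206, 197 and 187 TPM in the KO libraries (log2 difference -0.08, limma adjusted p = 0.673); it lies outside the rule for named genes and was chosen after its values were seen. Of the 27 differences 19 were negative and 8 positive.

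Of 23 genes of the hair germ and matrix lineage 14 were expressed at the limit or above, and none passed the test. Among these 14, 2 lay higher and 5 lower in every KO library (all genes: 11.8% and 13.9%). The median was -0.38 (-0.46 without WT replicate 1). Sox4, a factor of germ cells, stood at 58, 55 and 54.7 TPM in the WT libraries and 38.5, 28.1 and 34.2 TPM in the KO libraries (log2 difference -0.73, limma adjusted p = 0.0569). Edar, the ectodysplasin receptor, stood at 12.5, 13 and 10.1 TPM in the WT libraries and 7.71, 5.38 and 5.6 TPM in the KO libraries (log2 difference -0.84, limma adjusted p = 0.101), and Cdh3, P-cadherin of the germ, at 106, 94.1 and 91 TPM in the WT libraries and 76.2, 74.3 and 66.1 TPM in the KO libraries (log2 difference -0.42, limma adjusted p = 0.112). Of 23 hair shaft and inner root sheath genes 1, Krt28, reached the limit, so transcripts of the terminal products of the follicle were low in both groups.

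Niche signalling pathways showed no called gene other than Errfi1. Beside the counts below stand 11.8% of all genes higher and 13.9% lower in every KO library. Among 13 Hedgehog pathway genes 3 lay lower and none higher in every KO library, with a median of -0.34 (-0.44 without WT replicate 1). The transcriptional readouts of the pathway are Gli1, at 166, 227 and 238 TPM in the WT libraries and 178, 141 and 116 TPM in the KO libraries (log2 difference -0.54, limma adjusted p = 0.18), and Ptch1, at 85.3, 90.5 and 135 TPM in the WT libraries and 89, 52.5 and 42 TPM in the KO libraries (log2 difference -0.79, limma adjusted p = 0.181), and both overlapped. Among 27 Wnt pathway genes 3 lay higher and 5 lower in every KO library, and the median was -0.13, or -0.05 without WT replicate 3. Wnt4, a ligand, stood at 28.2, 20.7 and 22.6 TPM in the WT libraries and 16.7, 19.1 and 18 TPM in the KO libraries (log2 difference -0.38, limma adjusted p = 0.227), and Sfrp1, a secreted inhibitor, at 570.4, 591 and 588 TPM in the WT libraries and 498, 458 and 525 TPM in the KO libraries (log2 difference -0.24, limma adjusted p = 0.219). A ligand and an inhibitor lay lower together.

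The 16 BMP pathway genes had 4 higher and 1 lower in every KO library, with a median of 0.10 that was -0.06 without WT replicate 1. The 25 genes of TGF-beta signalling had 1 higher and 2 lower, with a median of 0.02. Tgfb2, a ligand that hair germ activation is known to use, stood at 8.34, 5.17 and 6.12 TPM in the WT libraries and 4.61, 4.34 and 3.67 TPM in the KO libraries (log2 difference -0.52, limma adjusted p = 0.36). With a KO mean of 4.21 TPM, it passed the limit of 5 TPM through the WT group. Tmeff1, a target of the SMAD factors in follicle stem cells, stood at 4.52, 6.38 and 5.31 TPM in the WT libraries and 8.94, 7.94 and 9.91 TPM in the KO libraries (log2 difference 0.64, limma adjusted p = 0.184). The 14 Notch genes had 2 higher and 2 lower, with a median of 0.12 that was 0.02 without WT replicate 1. Nrarp, a Notch target, stood at 37.7, 50.5 and 50 TPM in the WT libraries and 52.7, 58.8 and 78 TPM in the KO libraries (log2 difference 0.44, limma adjusted p = 0.236), and Jag2, a ligand, at 151, 171 and 151 TPM in the WT libraries and 121, 138 and 133 TPM in the KO libraries (log2 difference -0.27, limma adjusted p = 0.226). None of these genes passed the test. For comparison, 11.8% of all genes lay higher and 13.9% lower in every KO library.

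**Figure D5:**
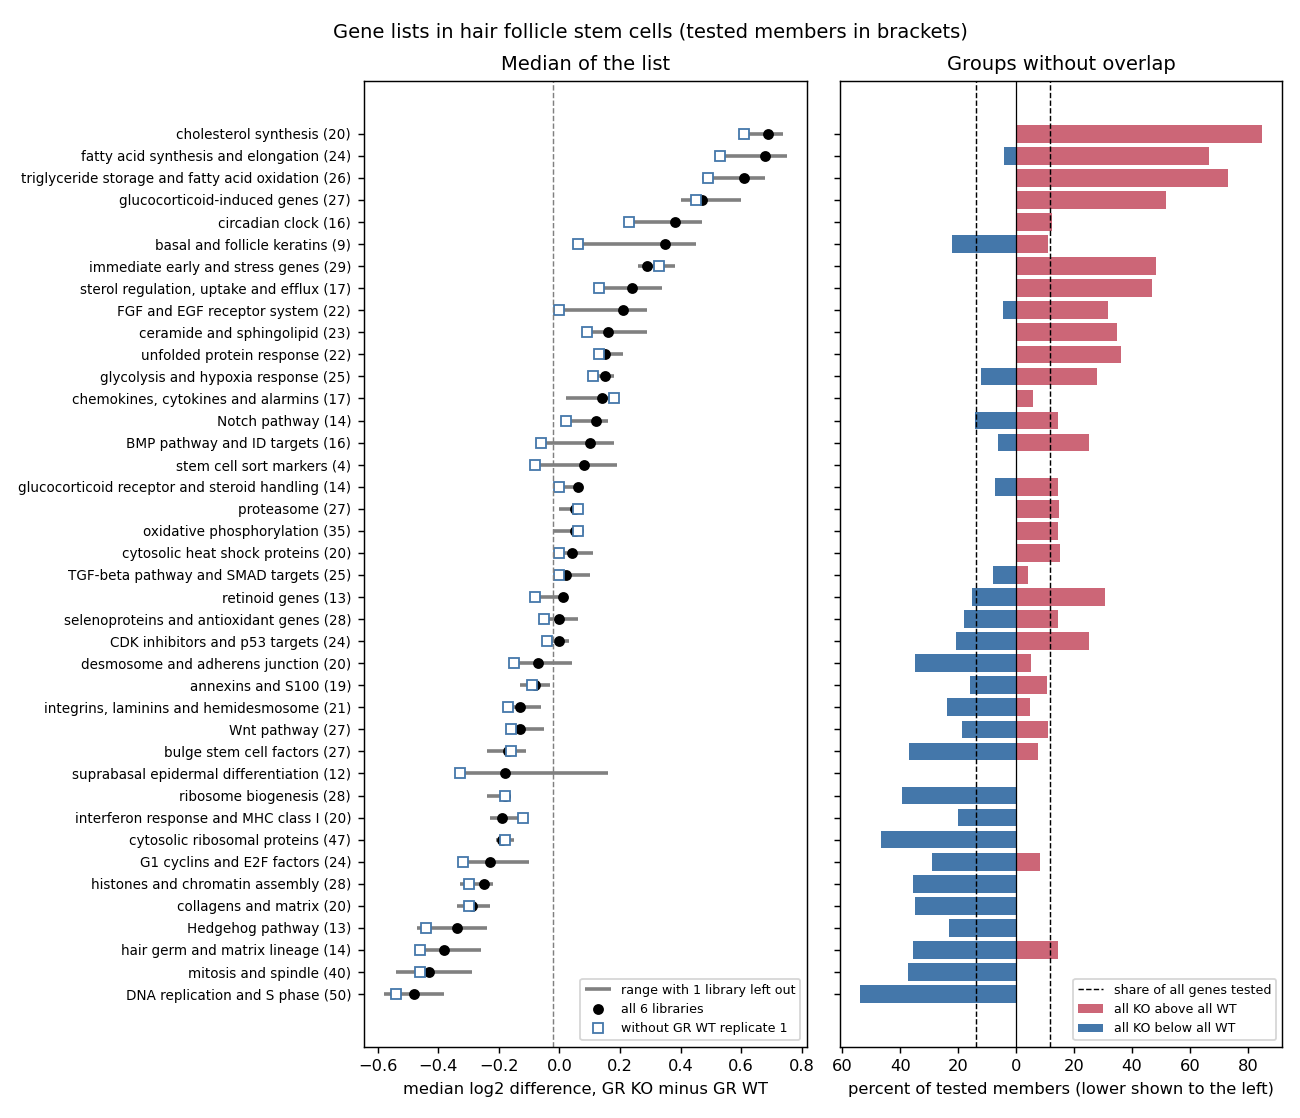
Left: median log2 difference of each gene list (KO minus WT) with all 6 libraries (black points), without WT replicate 1 (open squares) and its range with 1 library left out (bars), and the median of all genes as a dashed line. Right: percent of tested members whose groups do not overlap, higher in KO to the right and lower to the left, with the share of all genes dashed (11.8% and 13.9%). The cholesterol (0.69) and fatty acid lists (0.68) lie farthest to the right and the replication (-0.48) and mitosis lists (-0.43) farthest to the left.

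Among structural genes, Krt5, the basal keratin, stood at 10560.2, 9682 and 8968 TPM in the WT libraries and 7253, 7489.9 and 5941 TPM in the KO libraries (log2 difference -0.50, limma adjusted p = 0.0941), and of 9 basal and follicle keratins 1 lay higher and 2 lower in every KO library. Of 12 suprabasal differentiation genes none was separated between the groups. Over all genes 11.8% lay higher and 13.9% lower in every KO library. Of 20 genes of desmosomes and adherens junctions 1 lay higher and 7 lower, with a median of -0.07 (-0.15 without WT replicate 1), and of 21 integrins, laminins and hemidesmosome genes 1 and 5, with a median of -0.13. Of 20 collagens and matrix genes 7 lay lower and none higher, with a median of -0.29 (-0.30 without WT replicate 1). Col4a2, a chain of basement membrane collagen, stood at 38.8, 44.3 and 46.9 TPM in the WT libraries and 31, 29.6 and 29.9 TPM in the KO libraries (log2 difference -0.50, limma adjusted p = 0.0905), and Fn1, fibronectin, at 7.32, 9.56 and 12.4 TPM in the WT libraries and 6.58, 4.06 and 5.38 TPM in the KO libraries (log2 difference -0.76, limma adjusted p = 0.185). No gene of these lists was called. The 19 annexins, S100 proteins and galectins had 1 that fell, Lgals1, where 0.0969% of all genes did.

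The metabolic and stress lists are read against 0.465% of all genes called, 11.8% higher and 13.9% lower in every KO library. Of 22 genes of the unfolded protein response none passed, 8 lay higher and none lower in every KO library, and the median was 0.15 (0.13 without WT replicate 1). Xbp1, its transcription factor, stood at 62.4, 57.3 and 67.6 TPM in the WT libraries and 82.4, 95.5 and 109 TPM in the KO libraries (log2 difference 0.60, limma adjusted p = 0.078). Heat shock proteins (20 genes, 3 higher, 0 lower), oxidative phosphorylation (35 genes, 5 and 0) and the proteasome (27 genes, 4 and 0) had medians of 0.04, 0.05 and 0.05. Glycolysis and hypoxia genes (25) had 7 higher and 3 lower: Ndrg1, a hypoxia-responsive gene, stood at 21.9, 18.4 and 18.5 TPM in the WT libraries and 38.6, 39.2 and 28.6 TPM in the KO libraries (log2 difference 0.81, limma adjusted p = 0.0607), and Pkm, pyruvate kinase, at 565, 481 and 482 TPM in the WT libraries and 366, 374 and 396 TPM in the KO libraries (log2 difference -0.42, limma adjusted p = 0.0948). Of 28 selenoprotein and antioxidant genes 1 fell (Selenom), 4 lay higher and 5 lower, and Selenow, a small muscle and skin selenoprotein, stood at 575, 340.5 and 361 TPM in the WT libraries and 236, 225 and 209.9 TPM in the KO libraries (log2 difference -0.88, limma adjusted p = 0.0701). Of 13 retinoid genes 1 rose (Aldh1a7), 4 lay higher and 2 lower.

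Inflammatory genes of the stem cells held no call. None of 20 interferon response and MHC class I genes passed the test, and the median was -0.19 (-0.12 without WT replicate 1). Of the 20, 4 lay lower and none higher in every KO library (all genes: 13.9% and 11.8%). Bst2, an interferon-induced membrane protein, stood at 8.14, 12.7 and 10.1 TPM in the WT libraries and 4.17, 7.03 and 0.588 TPM in the KO libraries (log2 difference -1.47, limma adjusted p = 0.205). Of 17 chemokines, cytokines and alarmins none passed, 1 lay higher and none lower, and the median of 0.14 was 0.02 without KO replicate 2. Il33, the alarmin, stood at 8.98, 21.3 and 16.4 TPM in the WT libraries and 4.48, 7.49 and 12.5 TPM in the KO libraries (log2 difference -0.87, limma adjusted p = 0.267), and Ccl2, a chemokine for monocytes, at 10.3, 7.3 and 3.96 TPM in the WT libraries and 3.39, 3.08 and 6.96 TPM in the KO libraries (log2 difference -0.57, limma adjusted p = 0.477). Both overlapped between the genotypes. Bst2 and Ccl2, with KO means of 3.93 and 4.48 TPM, passed the limit of 5 TPM through the WT group.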

How the data were processed

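Sorted HFSC from GR WT and GR KO mice (3 libraries each) from day 4 after depilation gave strand-marked mRNA libraries, per the labels. Tools named in the submitters' processing notes are HOMER, STAR, Trim Galore and FastQC, with build mm10; for versions, settings and use of strand the sources used here give nothing. Overlapping or antisense genes and near-identical copies may therefore share reads. The authors deposited TPM values with 1 RefSeq transcript per gene, per the file headers. HFSC columns were matched to samples by table, genotype and number.

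The limma 3.58.1 fit (R 4.3.3) took genes whose mean reached 5 TPM, on log2(TPM + 1), a trended prior, two-sided, with Benjamini-Hochberg adjustment over all 10316 genes; the pseudocount of 1 TPM understates changes of low genes. The fit was tested on simulated data. TPM times transcript length gave whole tags within 0.1 for 100% of low values, which served for depth (4.5 to 7.99 M tags) and for voom; between 80.8% and 86.7% of tag counts up to 40 were even, so tags are not independent molecules and floors cover counting error only. Nr3c1 was tested by exact permutation.

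The members, 41 gene lists, 14 marker lists and alternatives were chosen with earlier results of these data known; lists are described by counts and medians, several genes stand in more than 1 list, and 1 entry, Flg, matched no row. Named genes were the sort markers, Nr3c1, Foxp3 and Mki67, the 12 genes each way with the largest called change and without overlap (open places by smallest p), and up to 5 members of each list with the smallest p; predicted loci and small RNAs were left out of the ranking. Other genes named were chosen after their values were seen. Promoters came from RefSeq (GRCm38.p6), for 7436 of 10316 genes. Alternatives covered pseudocount, filter, scaling, voom, prior, sample weights, each library left out, a replicate block and the set of genes fitted. The labels state no pairing, so replicate numbers were not taken as pairs. Same-numbered samples correlated at 0.022, 0.09 and -0.082 in their deviations, which cannot exclude pairing with 3 libraries in each group. Results for some single genes are not reported here.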

Additional observations from a re-analysis of the deposited data

How the results depend on the processing

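The 48 calls became 22 with a mean of at least 1 TPM, 230 with at least 20 TPM, 2 with no filter, 96 with median ratio scaling, 101 with quantile scaling, 583 with voom on recovered tags, 166 with a robust prior, 864 with sample weights and 257 without predicted, small RNA and ribosomal protein genes. A pseudocount of 0.1 or 5 gave 46 and 54. Leaving out 1 library gave 0 to 6 calls. With the replicate block the count was 84, with 32 of the 48 among them. The labels state no pairing. Same-number correlations of 0.022, 0.09 and -0.082 cannot decide it with 3 libraries in each group. WT replicate 1 correlated best with KO replicate 3 (0.033). The causes of these shifts were not tested. The Nr3c1 difference turned to -0.05 without WT replicate 3 and -0.01 without KO replicate 1, with a range of -0.05 to 0.20 over single libraries left out. Of named genes across all settings, 3108 values kept their direction and side of the threshold, 306 gained and 251 lost it, and 12 changed sign, all of genes not past it. These were Itga6 (-0.09 without WT replicate 1 and with sample weights, up to 0.16), Lgr5 (-0.08 without WT replicate 1, -0.06 without KO replicate 1, up to 0.29), Krt28 (0.20 without WT replicate 3, 0.02 without KO replicate 2, down to -0.36), Krtdap (-0.07 without WT replicate 3, -0.13 with sample weights, up to 0.76), Krt10 (0.10 without KO replicate 2, down to -1.17) and Nr3c1 (-0.05 and -0.01 as above, -0.11 with sample weights), where up to and down to give the other end of the range over libraries left out. Of list medians 681 moved by less than the spread and 38 by more. The cholesterol, fatty acid, replication, mitosis and glucocorticoid-induced medians kept their sign in all 18 settings, and those of CDK inhibitors, retinoid genes and selenoproteins changed sign in 9, 8 and 8.

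Depth limits small differences: 3 tags on 2000 bases are 0.308 to 0.515 TPM, and WT replicate 1 has the fewest tags.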
